A study of Homo sapiens with 8 samples.

Results

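Translation efficiency is the ribosome footprint level of an mRNA divided by its level in the input RNA. It was followed here for abundant transcripts in 3 cultures with guide RNAs against METTL16 and 1 culture with a control guide. Members were chosen by 2 measures. A gene needed a mean input level of 100 TPM (a length-scaled share of all transcripts in a library) or more over the 4 input libraries, and footprints above 0 TPM in all 4 footprint libraries. Symbols of small RNAs were left out by their prefixes. Of 26830 gene symbols, 341 had the input level and 228 met both conditions. The other 113 were listed at 0 in 1 or more footprint libraries. RefSeq classes 223 of the 228 as protein-coding. The remaining 5 are no mRNAs: the ribosomal RNA entries RNA28S5 and RNA45S5, the RNase P RNA RPPH1, and the long non-coding RNAs MALAT1 and SNHG16.

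Ribosome profiling sequences the stretch of mRNA that a ribosome shields from nuclease, so footprints divided by mRNA level report how densely an mRNA is occupied. Cells set this density gene by gene. Messages for ribosomal proteins and elongation factors begin with a run of pyrimidines (the 5′ TOP element) that ties them to mTOR signalling, ferritin messages are blocked by iron regulatory proteins when iron is scarce, and replication histone messages end in a stem-loop in place of a poly(A) tail. METTL16 places methyl groups on adenosines, with U6 RNA of the spliceosome and MAT2A, the mRNA of the enzyme that makes S-adenosylmethionine, as known substrates.

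The cells were HEK293T, an embryonic kidney line, as labelled. All 4 cultures came from 1 clone carrying Cas9 and expressed a guide RNA. They were kept in blasticidin (10 µg/ml) and puromycin (2 µg/ml) for 1 week or longer and received cycloheximide (100 µg/ml, 5 min), which stalls ribosomes. The cultures sgMETTL16-1, sgMETTL16-2 and sgMETTL16-3 carried guides against METTL16, numbered 1 to 3 in the labels, and sgNS carried the negative control guide. A culture gave an input library and a library of 17 to 34 nt footprints. The spread between sgMETTL16 cultures therefore holds any guide and culture differences together, and sgNS (n = 1) has no spread of its own. In bulk RNA, fewer cells of a type and less RNA per cell cannot be told apart.

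Most markers of the labelled cell type were scarce. Of 13 listed HEK293 markers 8 were under 1 TPM in all inputs, while 2, KRT8 and KRT18, reached 10 TPM in every input and are members. Each of 12 hepatocyte markers reached 10 TPM in every input, and 9 of these 12 are members. The targeted gene had an input level of 5.31 TPM in sgNS and of 4.72, 5.25 and 4.16 TPM in the 3 sgMETTL16 cultures. Footprints on METTL16 were listed only for sgNS (19.76 TPM) and at 0 elsewhere, so it has no ratio to compare. The deposited values carry no read counts, so the depth behind a value is unknown.

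The 228 members held from 12.6% to 16.1% of a library's input TPM and from 11.9% to 16.0% of its footprint TPM. Each library was rescaled so that the members summed to 1000000, and values on this scale are called rescaled TPM. What is in that sum differed between libraries. In the order sgNS and sgMETTL16-1 to sgMETTL16-3, ribosomal RNA took 31.3%, 30.7%, 17.5% and 62.3% of the members' footprints, and protein-coding members took 66.7%, 66.9%, 79.4% and 35.7%. In the inputs RPPH1 alone took from 40.9% to 49.1%. The footprint library of sgMETTL16-3 thus stood apart, and with this rescaling every mRNA in it is lowered by the same factor. The ratios are therefore also given on a second scale, in which the 223 protein-coding members alone sum to 1000000 (the protein-coding scale, chosen after these shares were seen), and calls are given without sgMETTL16-3.

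**Figure D1:**
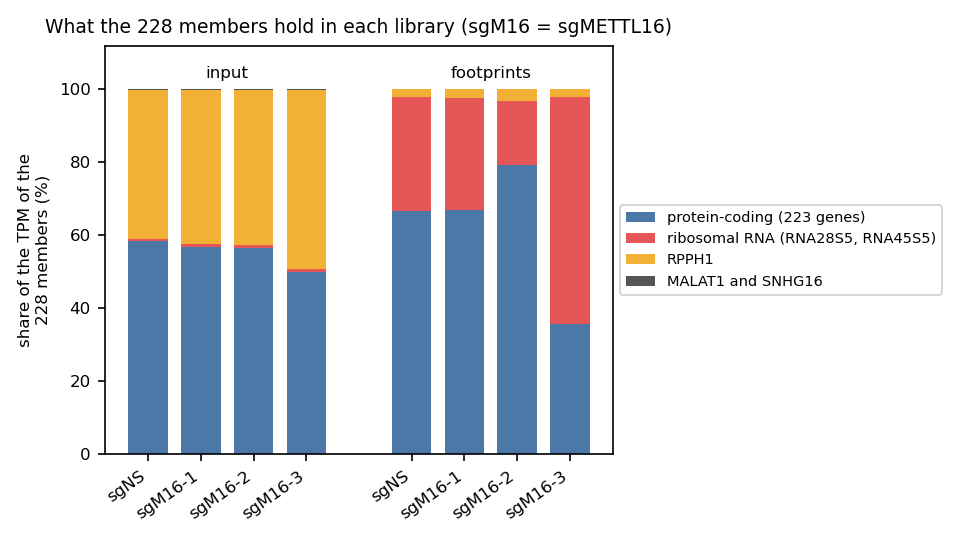
Share (%) of the summed TPM of the 228 members held by protein-coding genes, ribosomal RNA, RPPH1 and the other 2 non-coding RNAs, as stacked bars for the 4 input and the 4 footprint libraries. Ribosomal RNA takes 62.3% of the members' footprints in sgMETTL16-3 and 17.5% to 31.3% in the others.

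The order of members by translation efficiency was alike in the 4 cultures, and the differences between METTL16 and control guides were for most members of the size of the spread between cultures. Across the 223 protein-coding members the log2 ratio correlated between cultures at 0.70 to 0.83 (Pearson r on the protein-coding scale, across genes that share libraries and are not independent). The median log2 ratio of the 228 members was -0.15 in sgNS and -0.30, 0.23 and -0.76 in sgMETTL16-1, sgMETTL16-2 and sgMETTL16-3. The sgMETTL16 mean was -0.28 ± 0.50 (SD, n = 3), and sgNS lay inside their range. An exact two-sided permutation test gave p = 0.75, where the smallest p that 3 against 1 allows is 0.25. The difference from sgNS was -0.12, and 0.12 without sgMETTL16-3. On the protein-coding scale the medians were -0.34 in sgNS and -0.51, -0.25 and -0.29 in the sgMETTL16 cultures, so most of the distance between sgMETTL16-3 and the others is not seen on that scale. Both medians are relative to the members' own sum and cannot show a change in the total rate of translation.

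No member passed the threshold for a changed translation efficiency (limma adjusted p under 0.05 over 1776 genes with footprints in all libraries, percent called 0). At an unadjusted p under 0.05 there were 13 members, 3 higher and 10 lower, or 5.7% of the 228. The share over all genes tested was 13.9%. On the protein-coding scale 1 member passed, HIST1H4K, which was the only one of all genes tested (0.0563%). Without sgMETTL16-3, 5 members (2.19%) passed, near the 1.52% of all genes tested: HIST1H4K, HIST1H3H and HIST1H2AC were higher, and RHOC and the ribosomal RNA entry RNA28S5 lower. Among protein-coding members the median size of the log2 change was 0.70, against a median SD between sgMETTL16 cultures of 0.64, and on the protein-coding scale 0.65 against 0.56. The log2 change exceeded the SD in 115 of the 223.

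Counted by position, all 3 sgMETTL16 ratios lay above sgNS in 44 members and below it in 81, or 19.3% and 35.5%. Over all 1776 genes tested these shares were 7.6% and 56.9%. On the protein-coding scale the counts were 56 and 74 members, against background shares of 8.95% and 44.9%. The median log2 change was -0.33 for members and -0.93 for the 1548 tested genes below the input level, so the median change was lower among the less abundant genes.

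**Figure D2:**
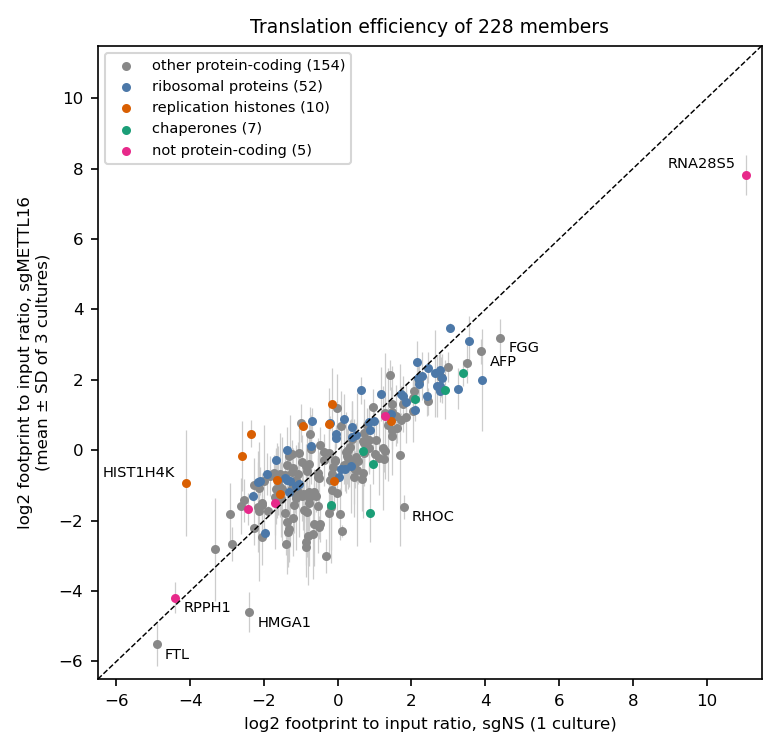
Log2 footprint to input ratio of the 228 members in sgNS (horizontal axis) and in the sgMETTL16 cultures (vertical axis, mean with SD bars, n = 3), rescaled over the members, with the line of equal values dashed. Points follow the line, replication histones lie mainly above it, and RHOC, HMGA1 and the cytosolic and mitochondrial chaperones lie below it.

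Levels of translation efficiency spanned a wide range that the cultures shared. The highest ratios of mRNAs belonged to secreted liver proteins and to ribosomal proteins. FGG, the fibrinogen gamma chain, had log2 ratios of 4.41 in sgNS and 3.75, 3.12 and 2.72 in the sgMETTL16 cultures. AFP, the fetal serum protein alpha-fetoprotein, had 3.90, 3.23, 2.60 and 2.61 in the same order, and ALB, serum albumin, had 3.51, 3.10, 2.29 and 2.04. For these 3 genes sgNS was the highest culture and the groups did not overlap. The same held for 56.9% of all genes tested and 35.5% of members, and none of the 3 passed the threshold with limma. FGG reached 100 TPM in sgMETTL16 inputs only, so its lower ratios there are in part set by the choice by mean input. The ribosomal protein genes RPL30 (mean over 4 cultures 3.38 ± 0.24, SD) and RPL9 (3.22 ± 0.60) stood among the highest ratios too, and for RPL9 sgNS lay within the sgMETTL16 range.

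FTL, the ferritin light chain that stores iron, had the lowest ratio. Its input was 42560 rescaled TPM in sgNS and 46069, 62084 and 65824 in the sgMETTL16 cultures, while its footprints were at 1416, 1559, 889 and 1422. The log2 ratios of -4.91, -4.88, -6.12 and -5.53 leave sgNS between the sgMETTL16 cultures. The next lowest were RPPH1, which codes for no protein (-4.24 ± 0.38, SD, n = 4), and HMGA1, a chromatin protein (-4.05 ± 1.19). SLC25A6, a mitochondrial ADP/ATP carrier (-2.94 ± 1.22), GPT2, an alanine transaminase (-2.70 ± 0.40), and PYCR1, of proline synthesis (-2.37 ± 0.67), followed. FTL was the only member with a mean ratio below that of the untranslated RPPH1. The opposite case was RNA28S5, with a log2 ratio of 11.07 in sgNS and of 7.90, 7.23 and 8.36 in sgMETTL16. As a ribosomal RNA it carries no translation efficiency.

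Some members hardly varied. EEF2, the factor that moves the ribosome along the mRNA, had an input of 6900 rescaled TPM in sgNS and of 6809, 6763 and 6960 in sgMETTL16, with footprints at 3161, 3405, 3007 and 3195. Its log2 ratio of -1.10 ± 0.07 (SD, n = 4) had the smallest spread of all 228. The desaturase SCD (-1.77 ± 0.15) and the fibrinogen chain FGA, at 2.21, 2.07, 2.00 and 1.82, were close behind. At the other end EIF4A1, the helicase of the cap-binding complex, had 1.68, 0.92, 1.75 and -3.08, the widest spread of all members, with sgMETTL16-3 far below the rest.

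Replication histones stood furthest above the other lists. Histones package new DNA in S phase. All 10 members of this list had lower input in all 3 sgMETTL16 cultures than in sgNS (13.1% of all genes tested did), with a median log2 input change of -2.01, while 5 of 10 had lower footprints in all 3 (background 46.1%), with a median of -0.77. The choice of members by mean input bears on this input count, since HIST1H2AH reached 100 TPM in sgNS alone (248 TPM, against 89.5, 60.6 and 54.1 TPM in sgMETTL16). The other 9 reached it in sgNS and in at least 1 sgMETTL16 culture. The ratio lay above sgNS in all 3 cultures for 5 of 10 and below it for 2, HIST1H3C and HIST1H2AH. Over all genes tested 7.6% lay above and 56.9% below, and over all members 19.3% and 35.5%. The list's median log2 change of translation efficiency was 1.24, with the single genes between -0.76 and 3.19 and the median of all members at -0.33. On the protein-coding scale the median was 1.35, with 7 of 10 above sgNS in all 3 and 1 below (background 8.95% and 44.9%). Without sgMETTL16-2 the median was 0.73. None of the 10 passed the threshold on the member scale (limma), and 3 had an unadjusted p under 0.05.

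HIST1H4K, a histone H4 gene, had the highest positive change of all members. Its input was 21486 rescaled TPM in sgNS and 6483, 4523 and 4545 in sgMETTL16-1, sgMETTL16-2 and sgMETTL16-3. Its footprints were at 1235 in sgNS and at 4649, 5556 and 747 in the others, so sgMETTL16-3 lay below the control here. The log2 ratio was -4.12 in sgNS and -0.48, 0.30 and -2.60 in sgMETTL16, with all 3 above sgNS (log2 change 3.19, SE 0.92, limma adjusted p = 0.108). On the protein-coding scale the change was 3.30 and passed (limma adjusted p = 0.00109). That p-value rests on a spread pooled over genes and does not measure the spread of HIST1H4K itself. The spread of this gene was wide, with sgMETTL16 ratios from -2.60 to 0.30 on the member scale.

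The histone H3 gene HIST1H3H had an input of 4605 rescaled TPM in sgNS and of 1611, 1100 and 1008 in sgMETTL16, with footprints at 900, 2165, 2029 and 1087. Both sides of its ratio separated the groups (log2 change 2.83, limma adjusted p = 0.172). HIST1H2AC, a histone H2A gene, had log2 ratios of -2.60 in sgNS and -0.10, 0.78 and -1.19 in sgMETTL16 (change 2.43, limma adjusted p = 0.213). HIST1H2AE followed at 1.62, with an SD of 0.08 between the 3 sgMETTL16 ratios, and HIST1H3B at 1.48. HIST1H3C differed from them, with footprints further below sgNS than its input: 7836 rescaled TPM in sgNS and 1009, 1202 and 1452 in sgMETTL16 (log2 footprint change -2.70 against -1.93 for input). HIST1H2AH had footprints of 5303 in sgNS and of 1249, 664 and 534 in sgMETTL16. Near-identical histone genes share reads, so the split between copies is uncertain. Another 27 histone genes had the input level but were at 0 in at least 1 footprint library, so these 10 do not stand for the family.

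**Figure D3:**
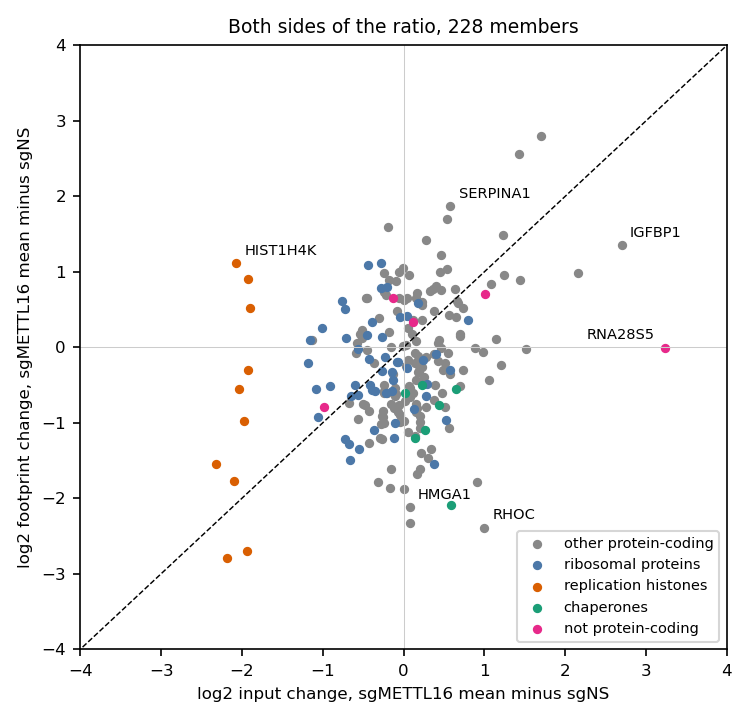
Log2 change (sgMETTL16 mean minus sgNS) of input (horizontal axis) and of footprints (vertical axis) for the 228 members, rescaled over the members, with equal change dashed. Distance above the dashed line is a higher translation efficiency. The 10 histone genes share an input change near -2.01 and spread in footprints, and cytosolic and mitochondrial chaperones lie below the line.

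Cytosolic and mitochondrial chaperones, which fold new proteins, had the lowest median among lists of 3 or more members. All 7 members of this list had ratios below sgNS in all 3 sgMETTL16 cultures, against 56.9% of all genes tested. This held for 4 of 7 on the protein-coding scale, against 44.9%. Of the 7 members, 4 reached 100 TPM in sgMETTL16 inputs only. For these a lower ratio is in part set by the choice by mean input. The median log2 change of the 7 was -1.21 (-1.11 on the protein-coding scale), made of a footprint median of -0.77 and an input median of 0.27. DNAJB1, a J-domain partner of HSP70, had footprints of 918 rescaled TPM in sgNS and of 260, 346 and 111 in sgMETTL16, with input at 496, 698, 790 and 743. Its log2 change was -2.67 (SE 0.92, limma adjusted p = 0.177). HSPD1, the mitochondrial chaperonin, had log2 ratios of 3.41 in sgNS and of 2.63, 1.98 and 1.97 in sgMETTL16. CCT7, a subunit of the cytosolic chaperonin, was at -1.34, the heat shock protein gene HSPA8 at -1.19 and HSP90AB1 at -0.63 as log2 changes. None passed the threshold with limma, and 1 of 7 had an unadjusted p under 0.05, a share like the 13.9% of all genes tested.

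Among mRNAs in no list the lowest changes were those of 2 small GTPases that act on the actin skeleton. RHOC had footprints of 1526 rescaled TPM in sgNS and of 288, 230 and 368 in sgMETTL16, whereas its input was at 442 in sgNS and, above it, at 732, 913 and 1032 in sgMETTL16. Its log2 ratio of 1.79 in sgNS stood against -1.34, -1.98 and -1.49, and the sgMETTL16 cultures lay close together (log2 change -3.39, SE 0.92, limma adjusted p = 0.0713). It passed on TPM as deposited, as did 0.676% of all genes tested (log2 change -3.69, limma adjusted p = 0.0255) and without sgMETTL16-3 (-3.45, limma adjusted p = 0.0209). RHOB had footprints of 507 in sgNS and of 160, 191 and 102 in sgMETTL16 (log2 change -2.70, limma adjusted p = 0.175). RHOC and RHOB were both among the 46 members that reached 100 TPM in sgMETTL16 inputs only. Their low ratios are thus in part set by the choice by mean input.

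LASP1, an actin-binding scaffold, had an even input of 1005 rescaled TPM in sgNS and 1061, 1046 and 1091 in sgMETTL16, and footprints of 1089 against 187, 224 and 238. HMGA1 had an input of 3257 against 2730, 3618 and 4095 and footprints of 616 against 97, 232 and 124. In both genes the difference thus sat in the footprints, where sgNS was the highest library (log2 changes of the ratio -2.42 and -2.20, limma adjusted p = 0.213 and 0.252). SLC7A5, an amino acid transporter (-1.89), STARD7, a lipid carrier (-1.85), and PEBP1, an inhibitor of RAF kinase (-1.77), followed with RPL26 (-1.92) among mRNAs whose 3 sgMETTL16 ratios all lay below sgNS. RNA28S5 belonged to this set by its value (-3.24), with footprints of 304559 in sgNS and of 302816, 160865 and 575470 in sgMETTL16, and input of 140 against 1266, 1072 and 1747. RPL26 and RNA28S5 reached 100 TPM in sgMETTL16 inputs only, so their ratios are in part set by the choice by mean input.

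**Figure D4:**
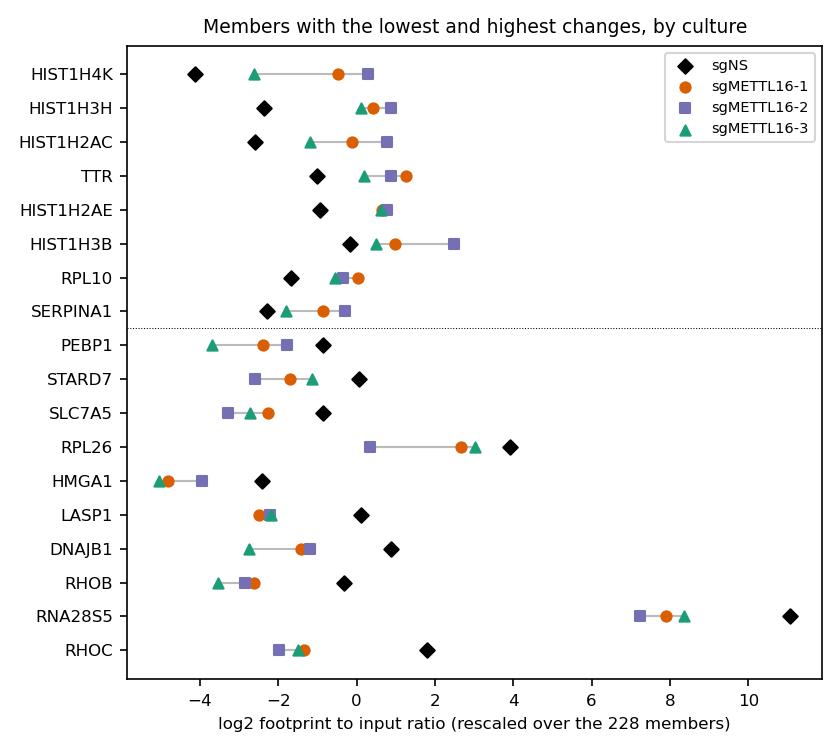
Log2 footprint to input ratio by culture for members among the 10 highest and the 10 lowest changes of those whose 3 sgMETTL16 ratios lie on the same side of sgNS (diamond). HIST1H4K is at the top with a change of 3.19 and RHOC at the bottom with -3.39, and the grey line spans the sgMETTL16 cultures.

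Ribosomal protein genes were the largest list, with 52 members, and had changes in both directions. Of these, 24 had a log2 change above 0 and 28 below, with a median of -0.07 (0.03 on the protein-coding scale and -0.41 on TPM as deposited). All 3 sgMETTL16 ratios lay above sgNS in 14 (26.9%) and below it in 12 (23.1%). The shares were 7.6% and 56.9% of all genes tested, and 19.3% and 35.5% of all members. On the protein-coding scale the list's counts were 14 (26.9%) and 5 (9.62%). There the shares were 8.95% and 44.9% of all genes tested, and 24.6% and 32.5% of all members. None passed the threshold with limma, and 1 had an unadjusted p under 0.05. Inputs were lower than sgNS in all 3 cultures for 27 of 52 and higher for 0 (13.1% and 39.2% of all genes tested). Footprints were lower for 19 and higher for 7 (46.1% and 9.01% of all genes tested). RPL10 had footprints of 691 rescaled TPM in sgNS and of 1469, 966 and 832 in sgMETTL16 (log2 change of the ratio 1.37), with all 3 cultures above sgNS. RPL26 had footprints of 7930 in sgNS and of 4079, 1627 and 3045 in sgMETTL16. RPL4 had 7861 in sgNS and 3845, 4976 and 3381 in sgMETTL16 (log2 change of the ratio -1.50). RPL37A, at 0.53, and RPL27, at -0.08, were among the highest in footprints. RPL26 was 1 of 8 members of this list that reached 100 TPM in sgMETTL16 inputs only. Ratios of these 8 are in part set by the choice by mean input.

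Since mTOR acts on these messages through the pyrimidine run at their first base, the annotated starts were read from RefSeq (GRCh38.p14), for which 177 of the 228 members had an entry. The search asked for a C at the start followed by 4 or more bases that are each C or T, on the transcribed strand only. It was met by 28 of 40 ribosomal protein genes and by 9 of the 137 other members, against 4.04% of all 27305 promoters in the table. Windows of 30 bases, 15 before the start and 15 from it, are shown for 6 members with the run, which is in capitals, and for 3 without it that the results turn on:
RPS16 (chr19:39435935-39435964, minus strand): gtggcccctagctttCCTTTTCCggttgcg
RPS19 (chr19:41860240-41860269, plus strand): ggaaaccccgtcgttCCCTTTCCCCTggct
RPL26 (chr17:8383179-8383208, minus strand): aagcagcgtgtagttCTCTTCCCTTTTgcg
RPL37A (chr2:216498829-216498858, plus strand): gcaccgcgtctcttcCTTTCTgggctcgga
EEF1A1 (chr6:73521018-73521047, minus strand): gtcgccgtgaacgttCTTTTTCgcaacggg
EEF2 (chr19:3985449-3985478, minus strand): gttgacgtcagcgttCTCTTCCgccgtcgt
HIST1H4K (chr6:27831546-27831575, minus strand): caggccagagtcctcacaaagcgttgggtg
RHOC (chr1:112707394-112707423, minus strand): cgccggtcctcccctaggggattgaaggct
ALB (chr4:73404272-73404301, plus strand): ttccctccgtttgtcctagcttttctcttc

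Members with the run did not share a direction. RPS16 and RPS19 had log2 changes of 1.25 and 1.23 and RPL26 had -1.92, with runs of 8, 11 and 12 bases. RPL26 reached 100 TPM in sgMETTL16 inputs only, so its low ratio is in part set by the choice by mean input. The 37 members with the run had a median log2 change of -0.12, with 7 above sgNS in all 3 cultures and 8 below. The 140 without it had -0.42, with 29 above and 57 below. Over all genes tested 7.6% lay above and 56.9% below in this way. Within ribosomal proteins the medians were -0.06 for the 28 with the run and -0.15 for the 12 without. The absence of the run says only that these letters do not stand at the annotated start.

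Elongation and initiation factors had a median log2 change of -0.80 over 10 members, with 9 below 0 and 4 below sgNS in all 3 cultures. The share of 40% stood against 56.9% of all genes tested and 35.5% of all members. On the protein-coding scale the count was also 4, against 44.9% of genes tested and 32.5% of members. EEF1A1, which brings aminoacyl-tRNA to the ribosome, had footprints of 12042 rescaled TPM in sgNS and of 10138, 14066 and 6477 in sgMETTL16, with input at 2224, 4766, 5823 and 1837 (log2 change of the ratio -1.04, limma adjusted p = 0.606). EIF5A, which relieves stalled ribosomes, was at -0.60, RACK1, of the small ribosomal subunit, at -0.25, EEF1G at -0.01 and EEF2 at 0.03. EIF4A1 had the lowest change (-1.81), which rested on sgMETTL16-3. None passed the threshold with limma, and 1 had an unadjusted p under 0.05.

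Secreted plasma proteins, the main products of liver, varied in both directions. Of 21 members 4 had all 3 sgMETTL16 ratios above sgNS and 6 below, with a median log2 change of -0.24. None passed with limma, and 0 had an unadjusted p under 0.05. The abundant ALB (-1.04), AFP (-1.08), FGG (-1.21) and LYZ, lysozyme (-0.63), had sgNS as the highest ratio, while SERPINA1, alpha-1-antitrypsin (1.29), and TTR, the thyroid hormone carrier (1.78), had it as the lowest. SERPINA1 had footprints of 1373 rescaled TPM in sgNS and of 5720, 8480 and 2628 in sgMETTL16, with input at 6659, 10289, 10413 and 9187. SERPINA3, an acute-phase protease inhibitor, was at -0.24 as a log2 change. FGG was 1 of 4 members of this list that reached 100 TPM in sgMETTL16 inputs only. The summed level of the 12 hepatocyte markers differed between cultures too. It was 3923 TPM for the sgNS input against 7103, 7485 and 4471 TPM for the sgMETTL16 inputs. For footprints it was 12868 TPM against 22148, 17643 and 4672 TPM. The part of these markers in the members' values was not tested.

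Of 5 apolipoproteins, which carry lipids in plasma, APOA2 (0.89) and APOA1 (0.56) were above 0 and APOH (-0.73) and APOB (-0.47) below, with a median of 0.38. APOA2 ratios were -1.66 in sgNS and -0.26, -0.30 and -1.73 in sgMETTL16, so sgNS lay within their range. Among 9 genes of folding and transport in the endoplasmic reticulum the median was -0.33, equal to that of all members to 2 decimals, with PPIB, a prolyl isomerase, at -0.55 and CALR, a calcium-binding chaperone, at 0.63.

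Enzymes of glycolysis had 7 members, all with a log2 change below 0 and 5 below sgNS in all 3 cultures (4 on the protein-coding scale), at a median of -0.59. Over all genes tested 56.9% and 44.9% lay below in the same way. GAPDH had an even input of 7926 rescaled TPM in sgNS and 7987, 7390 and 7717 in sgMETTL16, and footprints of 11641, 7415, 8884 and 3749. ENO1, enolase, was at -0.51 and LDHA, lactate dehydrogenase, at -0.72. Antioxidant enzymes (5 members, median -0.55) included PRDX2 at -1.47, and AKR1C1, a ketosteroid reductase at -0.55 whose input and footprints were both above sgNS in sgMETTL16-1 and sgMETTL16-2. Of 12 genes for actins, tubulins and keratins 5 were below sgNS in all 3 cultures and 2 above, at a median of -0.47. These shares of 41.7% and 16.7% stood against 56.9% and 7.6% of all genes tested, and 35.5% and 19.3% of all members. ACTB was at -0.49, ACTG1 at -1.31 and TUBA1B at -0.07.

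The other lists with 3 or more members had medians between -0.50 and 0.22. They were splicing and RNA-binding proteins (6 members, -0.50), lipid and cholesterol enzymes (4, -0.47) and the nuclear respiratory chain (4, -0.39). Others were TOP messages other than ribosomal proteins (5, -0.25) and proteasome and ubiquitin genes (6, 0.04). A list named for cell cycle and proliferation held GDF15, OAZ1, SRM and TUBA1B (4, -0.43). The list of long non-coding RNAs held MALAT1, SNHG16 and the RNase P RNA RPPH1 (3, 0.22), with the median at RPPH1. The 5 TOP messages are also in the list of elongation and initiation factors. No member of these lists passed with limma. PSMB3, a proteasome subunit, was above sgNS in all 3 cultures (log2 change 1.22), and SRM, spermidine synthase, below it in all 3 (-1.27). GDF15, a stress-induced cytokine, had both sides of the ratio above sgNS: input was at 1204 rescaled TPM in sgNS and at 2946, 4221 and 4798 in sgMETTL16, and footprints at 339 and at 2239, 3193 and 1836. Its log2 change was 1.70 for input, 2.80 for footprints and 1.10 for the ratio. The footprint change passed on the protein-coding scale (0.113% of all genes tested did) and not on the member scale (limma adjusted p = 0.464).

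**Figure D5:**
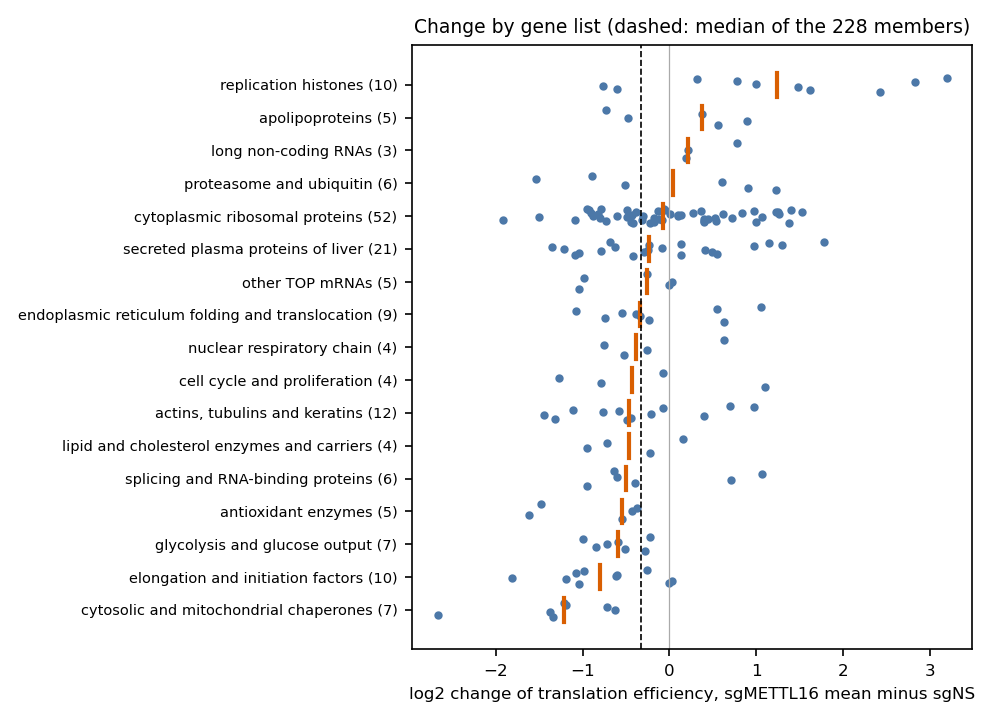
Log2 change of translation efficiency (sgMETTL16 mean minus sgNS, rescaled over the members) for the members of 17 gene lists, with the number of members in brackets, orange bars at list medians and the median of all 228 members (-0.33) dashed. Replication histones have the highest median (1.24) and cytosolic and mitochondrial chaperones the lowest (-1.21).

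Taken by side, no member passed in the footprints (limma, percent called 0), where 10 had an unadjusted p under 0.05 (8.33% of all genes tested had). In the input 59 members had an unadjusted p under 0.05 (5.8% of all genes tested had). After adjustment 1 member passed (0.0563% of all genes tested, that is this gene alone): IGFBP1, a liver-made binding protein of insulin-like growth factors, rose from 334 rescaled TPM in sgNS to 2086, 2448 and 2011 (log2 change 2.70, limma adjusted p = 0.0372). It did not pass without the trend, without the filter on footprints or with only the members fitted. Its footprints were at 733 in sgNS and at 2771, 3227 and 736, so sgMETTL16-3 was level with the control, and its ratio had a log2 change of -1.35 (limma adjusted p = 0.518). On the protein-coding scale 23 members passed in the input, 11 higher and 12 lower, among them all 10 histones (1.58% of all genes tested passed, 28 genes with these 23 among them). Members were chosen by their mean input, and 46 of the 228 reached 100 TPM in sgMETTL16 inputs only and 1 in sgNS only. For these an input difference, and with it the ratio, is in part set by that choice. IGFBP1 was among the 46, so its input difference and its call are in part set by that choice too.

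The input level that defines the members lies in a continuous range. The nearest members inside it were RNASEK, RPL30 and RPL14, with mean inputs of 100.1, 100.5 and 100.5 TPM, and the nearest genes outside were MYH9, POR and ASGR2, with 99.7, 99.5 and 99.4 TPM. Their log2 changes were -0.28, 0.45 and -0.44 inside and -0.70, -0.60 and 0.92 outside. MAT2A, the known METTL16 target, lay below the level at a mean of 19.2 TPM. It had 74.1 TPM of footprints with the control guide against 10.7, 20.9 and 28.4 TPM with METTL16 guides, and its log2 change of translation efficiency was -1.80 (limma adjusted p = 0.359). Of its pathway, AHCY, which clears S-adenosylhomocysteine, was a member and had ratios below sgNS in all 3 cultures (log2 change -1.46, limma adjusted p = 0.466).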

How the data were processed

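Input RNA and ribosome footprints of 4 cultures (8 libraries) were used. The authors deposited TPM for 26830 symbols. The submitters' processing notes name STAR, RSEM 1.2.31 and the build GRCh38, without settings. TPM holds no read depth, so counting errors were not computed.

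Libraries were rescaled over the 228 members. The log2 ratio (footprint + 1)/(input + 1) was taken within each culture, since both libraries of a culture come from the same cells. limma 3.58.1 in R 4.3.3 compared 3 sgMETTL16 cultures with sgNS, with a trend on input level and Benjamini-Hochberg adjustment over 1776 genes (mean input of 1 TPM or more, footprints above 0 in all libraries). In the ratio and footprint fits the prior degrees of freedom were Inf, so every member was judged by the spread typical of its level (SE 0.92 for ratios). The lone sgNS was assumed to vary like the others. The p-values of ratios and footprints thus rest on a spread between cultures pooled over genes, and not on that of the single gene. In the input fit the gene's own spread counts in part. RefSeq matched 210 members by symbol and 16 by synonym.

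The 20 gene lists and the members were chosen with earlier results of these data known, and no set test was run. Named genes were the 10 highest and 10 lowest changes with all 3 cultures on 1 side of sgNS, the 6 highest and 6 lowest ratios, the 4 highest in footprints of each list with 3 or more members, METTL16, MAT2A and the genes nearest the input level. Some genes under this rule are not reported here. Other genes named (RPL4, RPS16, RPS19, EIF4A1, FGA, HIST1H2AH, IGFBP1, AHCY, FTH1, MT2A and RPS15) were chosen after their values were seen. Alternatives were other pseudocounts, scales, input levels, filters and moderation, and leaving out each sgMETTL16 culture.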

Additional observations from a re-analysis of the deposited data

How the results depend on the processing

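With 1 control culture, no spread within sgNS and no read depth, calls depend on how the other cultures vary. Taking the 2 libraries of a culture without the replicate block (unpaired) left 0 members called in translation efficiency, with 10 at an unadjusted p under 0.05. Other settings gave translation efficiency calls for 2 members (TPM as deposited) or 1 (centred on medians, input of 200 TPM or more, protein-coding scale), and from 0 to 5 when a culture was left out, with 5 without sgMETTL16-3. Footprint calls were 1 on the protein-coding scale and from 0 to 7 when a culture was left out. Input calls were 14 as deposited, 22 centred, 23 on the protein-coding scale, 15 to 41 with a culture left out, and 0 at 200 TPM, with no trend, with no footprint filter or with only the members fitted. The difference in the median ratio of members turned to 0.31 at 200 TPM and lay between -0.38 and 0.12 with a culture left out, positive without sgMETTL16-3. Members' share at 200 TPM was 11.4% and 13.8% of input (sgNS, sgMETTL16 mean) and 6.72% and 6.63% of footprints, and at 50 TPM 13.8% and 17.0% of input and 16.9% of sgNS footprints. The list median of ribosomal proteins was -0.41 as deposited, 0.042 centred, 0.25 at 200 TPM and 0.033 on the protein-coding scale. Other TOP messages were at -0.59 and the list of MALAT1, SNHG16 and RPPH1 at -0.13 as deposited. Cytosolic and mitochondrial chaperones were at -1.55, -1.10 and -1.11 as deposited, centred and on the protein-coding scale. With a culture left out, the list medians ranged from -0.69 to 0.013 for other TOP messages, from -1.19 to -1.11 for these chaperones and from 0.73 to 1.60 for histones. For MALAT1, SNHG16 and RPPH1 together the median ranged from 0.26 to 0.82. Among single genes the sign turned as deposited for RPPH1 (-0.13), GPT2 (-0.14), EEF2 (-0.31), SCD (-0.18), HIST1H4E (-0.014) and MALAT1 (-0.13). It turned when centred for RPL27 (0.033), EEF1G (0.11) and TUBA1B (0.046), on the protein-coding scale for RPL27 (0.025), EEF1G (0.10) and TUBA1B (0.038), at 200 TPM for EEF1G (0.040), and at 50 TPM for EEF1G (0.067) and TUBA1B (0.0031). With a culture left out the sign turned for ALDOA (-0.57 to 0.13), COX4I1 (-0.66 to 0.13), DAD1 (-0.37 to 0.024), EEF1G (-0.15 to 0.12), EEF2 (-0.020 to 0.065), GPT2 (-0.012 to 0.46), GPX2 (-1.22 to 0.77), MALAT1 (-0.49 to 0.82), RACK1 (-0.69 to 0.050), RNASEK (-0.91 to 0.23), RPL14 (-0.84 to 0.27), RPL27 (-0.26 to 0.17), SERPINA3 (-0.66 to 0.28), SLC25A6 (-0.31 to 1.04), SNRPB (-1.36 to 0.23) and TUBA1B (-0.33 to 0.15). The cause was not tested.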

Other observations

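The 113 abundant genes outside the members give the other side of the footprint condition. Of these, 68 were at 0 in 1 library, 28 in 2, 7 in 3 and 10 in all 4. By library, 79 were at 0 in sgMETTL16-3, 55 in sgNS, 37 in sgMETTL16-1 and 14 in sgMETTL16-2, and 39 and 19 were at 0 in sgMETTL16-3 or sgNS alone. Replication histones made up 27 of the 113. FTH1, the ferritin heavy chain, had a mean input of 1021 TPM, was listed at 0 in the sgNS footprints and stood at 49.9, 51.9 and 23.6 TPM in the sgMETTL16 footprints. Like its partner FTL it thus had few footprints for its level. The metallothionein MT2A, at a mean input of 768 TPM, was listed at 0 in sgNS and sgMETTL16-3 and stood at 155 and 909 TPM in sgMETTL16-1 and sgMETTL16-2. Footprints on RPS15, of the small ribosomal subunit, had 790 TPM for sgNS, 178 TPM for sgMETTL16-1 and 412 TPM for sgMETTL16-2, and were listed at 0 for sgMETTL16-3.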
